A study of Mus musculus with 8 samples.

Results

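The genes described here are 10 transcription factors that pattern the neuroepithelium of the eye: *Pax6*, *Meis2*, *Lhx2*, *Otx1*, *Otx2*, *Six3*, *Six6*, *Zic1*, *Zic2* and *Tbx20*. They were taken by symbol from the gene table of a single nucleus RNA-seq study of the adult mouse iris, and all 10 of the 10 symbols are among its 22873 genes. Nuclei came from adult female albino mice, and the study describes no transgene for any of these groups. There were 3 libraries from untreated mice, 3 from mice whose pupils were constricted by hourly pilocarpine drops in the light, and 2 from mice whose pupils were dilated by hourly phenylephrine and cyclopentolate drops in the dark. Drug and lighting therefore cannot be told apart in either comparison. Both treatments lasted the same number of hours before the eyes were taken, so each comparison is of a single time point. Each library was a separate pool of irises that carried along differing amounts of ciliary body, so the library is the replicate and the animals within a pool cannot be separated.

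The epithelial layers and the muscles of the iris are classically described as growing from the rim of the optic cup, a part of the neural tube, whereas the stroma comes from the neural crest. From its own lineage tracing the study proposes a different model. In it, neural crest cells also supply most of the pigment epithelium and dilator muscle and part of the sphincter. *Pax6* is the paired-box factor needed for eye formation, and loss of a single copy leaves an underdeveloped iris. *Lhx2*, *Six3* and *Six6* are eye field homeobox genes, *Otx1* and *Otx2* are homeobox genes of the head and of pigment epithelium, *Meis2* encodes a homeobox partner of PAX6, *Zic1* and *Zic2* encode zinc finger proteins of dorsal neural tissue and optic cup, and *Tbx20* encodes a T-box factor best known from the heart.

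The questions were where in the adult iris these genes are still transcribed, and whether their transcript levels move when the pupil is dilated or constricted. The nuclei number 34357, in 10 cell types as the authors named them: iris pigment epithelium (iris PE), ciliary body epithelium (CBE), ciliary body (CB), dilator muscle, sphincter 1, sphincter 2, stroma 1, stroma 2, leukocytes and endothelial cells. Unique molecular identifiers (UMIs, each standing for 1 captured transcript) were added up within each library for each cell type, and levels are given as counts per 1000000 UMIs of that sum (CPM). UMIs per library ranged from 5189437 to 25136427. Since the CPM of a long and a short gene are not comparable, levels are compared between cell types for 1 gene and never between genes. Fewer cells of a type within a mixed sum and less RNA per cell cannot be told apart in such sums.

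Several features of the libraries bear on the results. Untreated 1 and dilated 1 share 63 cell barcodes, 4.26% of the nuclei of untreated 1, and 59 of these carry the same cell type in both libraries. The other 27 pairs of libraries share at most 18 barcodes, up to 0.947% of the smaller library. Of the 14 barcodes shared by untreated 1 and constricted 1, 13 carry the same cell type, as do 11 of the 18 shared by constricted 1 and dilated 1. In each remaining pair at most 3 do. Each result below was also computed without the nuclei of shared barcodes, and the value is given where the call changed. The markers of sphincter and endothelial cells were highest in the types of those names. Those taken for iris PE (*Tyr*, *Tyrp1* and *Dct*), which melanocytes also use, summed to 10037 to 10481 CPM in iris PE and to 25691 to 26293 CPM in stroma 1, and those for the dilator to 2406 to 2832 CPM in dilator muscle and 2722 to 3413 CPM in the sphincter types. In untreated irises, however, the 3 markers taken for ciliary body epithelium (*Slc4a4*, *Atp1b2* and *Aqp1*) summed to 108 to 177 CPM in CBE and to 6104 to 6815 CPM in CB, nearly all of it *Slc4a4*, and the 3 smooth muscle genes taken for CB (*Acta2*, *Myh11* and *Des*) summed to only 70.9 to 159 CPM in CB. The names CBE and CB are therefore used below as the authors' labels alone. Markers of the lens were scarce, with a sum of at most 13.3 CPM over all nuclei of a library.

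Sequences upstream of 3 genes are shown because *Otx2* on one side, and *Zic1* with *Tbx20* on the other, were highest in different cell types, CB, sphincter 2 and dilator muscle for *Otx2* and iris PE and CBE for the other two. They are from RefSeq on GRCm38, the assembly called mm10 in the files, on the minus strand and read 5′ to 3′ toward the transcription start. Bases that any annotated exon covers were left off. Capitals mark a match to one of the 7 short motifs searched on both strands: the OTX motif TAATCC, the general homeobox motif TAATTA, the MEIS motif TGACAG, the motif of *Six3* and its relatives TGATAC, the ZIC motif CAGCAGG, the T-box motif AGGTGTG and the TATA motif TATAAA. The OTX and homeobox motifs share their opening letters. The *Otx2* window, at chr14:48667645-48667894, lies within the span of the *Otx2* gene, upstream of a shorter transcript. It is the 1 of 4 *Otx2* windows that no exon overlaps, and of the others the window at chr14:48665110-48665359 holds 1 OTX and 3 homeobox matches.
Otx2: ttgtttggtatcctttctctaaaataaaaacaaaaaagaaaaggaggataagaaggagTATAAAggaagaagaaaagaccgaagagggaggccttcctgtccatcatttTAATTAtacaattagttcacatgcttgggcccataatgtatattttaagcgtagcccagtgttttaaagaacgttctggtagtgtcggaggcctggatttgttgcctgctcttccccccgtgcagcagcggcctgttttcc
Zic1 (chr9:91365811-91366018): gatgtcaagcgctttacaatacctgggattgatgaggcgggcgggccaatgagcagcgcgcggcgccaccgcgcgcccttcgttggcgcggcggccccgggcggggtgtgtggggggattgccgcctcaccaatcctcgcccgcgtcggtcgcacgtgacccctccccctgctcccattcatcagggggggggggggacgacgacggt
Tbx20 (chr9:24774304-24774553): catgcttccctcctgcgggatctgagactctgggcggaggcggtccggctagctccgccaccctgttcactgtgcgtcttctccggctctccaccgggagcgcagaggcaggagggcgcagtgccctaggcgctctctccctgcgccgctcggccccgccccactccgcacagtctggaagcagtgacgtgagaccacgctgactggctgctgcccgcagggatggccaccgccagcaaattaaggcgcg

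The *Otx2* window holds 1 match to TAATTA and 1 to TATAAA, and its GC content is 42.0%. The window of *Zic1* lies within the *Zic4* gene, which runs on the opposite strand. The windows of *Zic1* and *Tbx20* hold none of the 7 motifs. Their GC content is 66.0% over the full 250 bases for *Zic1* and 68.8% for *Tbx20*, where the median of the 32851 promoter windows of that length is 52.4%. Among those windows the homeobox motif is found in 4.84%, the TATA motif in 12.4%, the OTX motif in 6.25%, the MEIS motif in 15.9%, that of the *Six3* relatives in 4.64%, the ZIC motif in 8.44% and the T-box motif in 5.10%. RefSeq windows were found for 8 of the 10 genes. A match is a description of the letters, not a binding site.

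*Pax6* was high in iris PE, CBE, CB and the 3 muscle types. *Pax6* spans chr2:105668900-105697364 on the plus strand. In untreated irises its level was 1998 ± 521.6 CPM in CB, 1691 ± 63.4 in iris PE, 1506 ± 152 in dilator muscle, 1408 ± 129 in sphincter 2, 1258 ± 122 in sphincter 1 and 1214 ± 77.1 in CBE (mean ± SD, n = 3 libraries for this and all untreated levels). No neighbours in that order differed beyond their spread, as the range of mean ± SD of each overlapped the next. The next type down, endothelial cells, was at 319 ± 59.8 CPM and did not overlap with CBE. Stroma 2 at 86.4 ± 29.9 and stroma 1 at 75.8 ± 38.7 CPM were lowest. UMIs of *Pax6* were found in 96.8% of iris PE nuclei and 97.9% of dilator nuclei, against 15.2% in stroma 1 and 14.5% in stroma 2, which serve here as a reference for low levels. With each nucleus thinned to 1000 UMIs, the shares were 78.1% in iris PE and 77.4% in dilator muscle, and 6.02% and 6.57% in the stromal types. Stroma 2 was at 76.1 CPM without called doublets, and the source of the stromal UMIs was not tested.

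*Meis2* was higher in dilator muscle and sphincter 2 than in iris PE, and lower in sphincter 1. *Meis2* lies at chr2:115863064-116065839 on the minus strand. Its level in dilator muscle was 988, 1074 and 1089 CPM in the 3 untreated libraries, above all 3 values of iris PE, 563, 717 and 703 CPM. CB at 882 ± 80.9 and sphincter 2 at 848 ± 78.4 CPM stood between them and overlapped with each other. Sphincter 1 followed at 523 ± 21.4 and CBE at 420 ± 43.2 CPM. *Meis2* in stroma 1, 93.9 ± 22.8 CPM, was above stroma 2, 27.7 ± 11.8 CPM, without overlap, and the thinned shares of nuclei were 8.91% and 2.67%. Its paralog *Meis1*, from the list of related genes, differed less among these 6 types, from 461 ± 26.3 CPM in sphincter 1 to 708 ± 23.7 in CBE.

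*Lhx2*, a LIM homeobox gene, was highest in dilator muscle. *Lhx2* is at chr2:38339281-38369733 on the plus strand. The 3 untreated libraries had 77.9, 77.4 and 75.1 CPM there. Sphincter 2 (51.3 ± 21.2), CBE (45.6 ± 8.77), iris PE (44.3 ± 3.86) and CB (40.2 ± 11.2 CPM) came next and each overlapped with its neighbour, so that only the dilator stood apart in untreated irises. All other untreated types were at 25.0 CPM or less. The lowest untreated value of sphincter 2, 27.5 CPM, rested on 3 UMIs. With dilation the dilator (66.9 and 55.5 CPM) overlapped with sphincter 2 (55.6 and 57.9 CPM). With constriction the dilator (64.7, 69.6 and 82.4 CPM) also overlapped with sphincter 2 (51.9, 21.7 and 71.7 CPM).

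**Figure D1:**
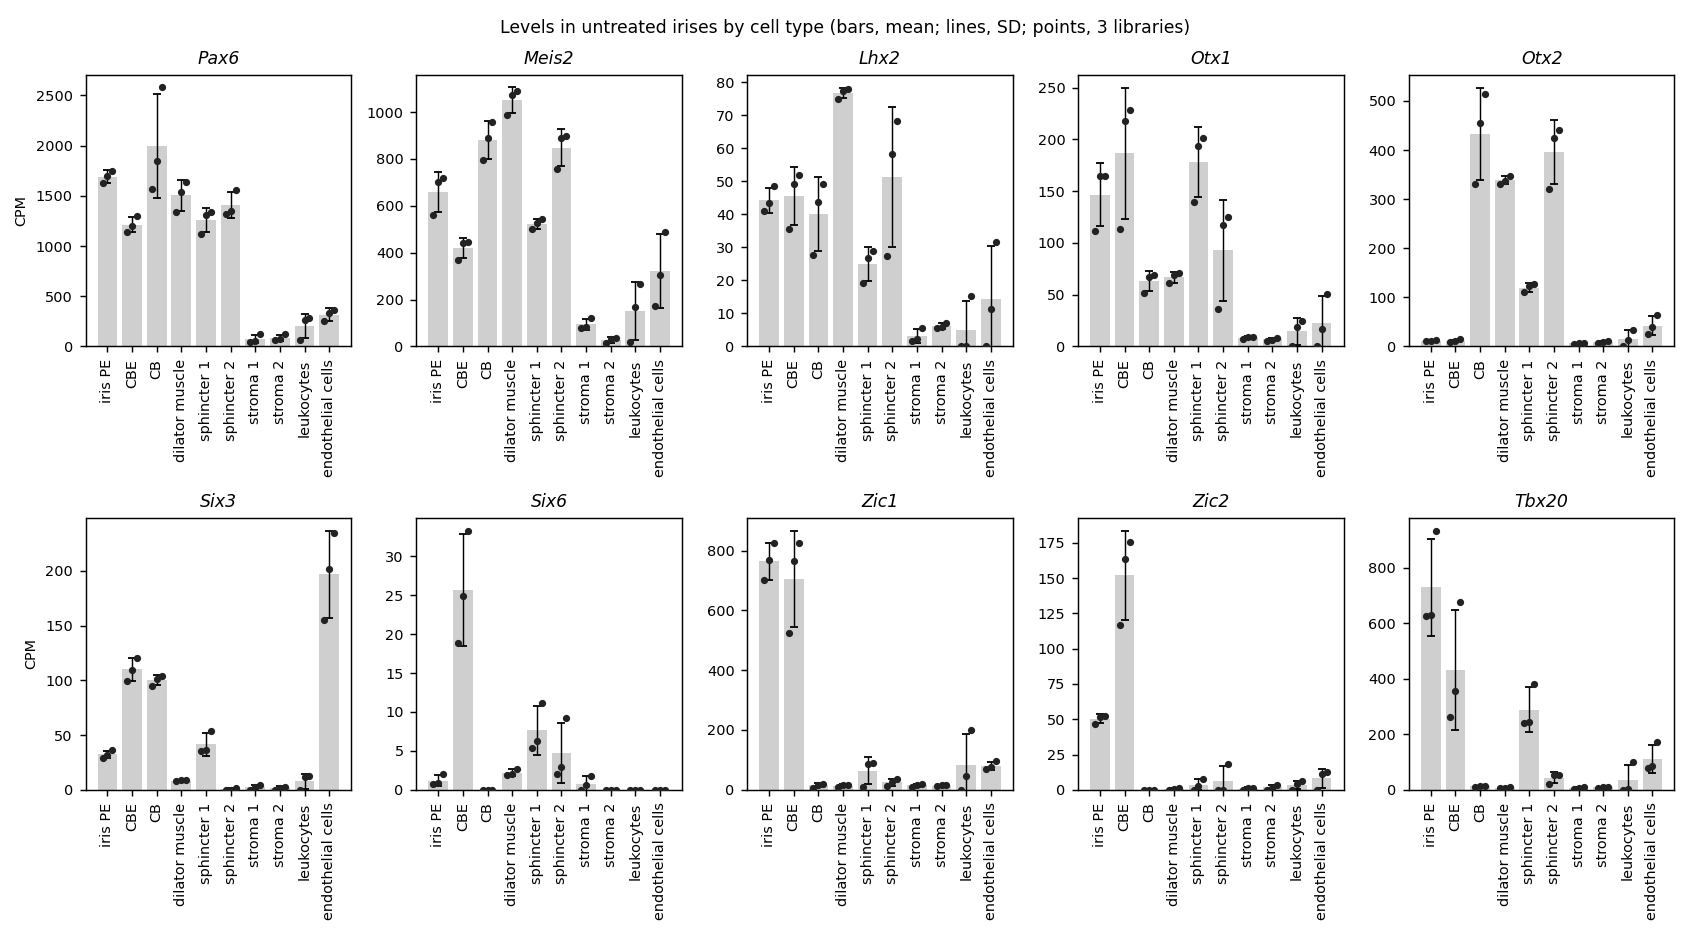
Level of each of the 10 genes (CPM, linear axes that differ between panels) in the 10 cell types of untreated irises. Bars are means over 3 libraries, lines are SD and points are libraries. *Otx2* stood at 433 CPM in CB and 11.2 CPM in iris PE, and *Zic1* at 14.6 CPM in CB and 764 CPM in iris PE.

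*Otx1* was found in iris PE, CBE, CB and the muscle types, and *Otx2* in 4 of these 6 types. *Otx1* (chr11:21994764-22002897, minus strand) was at 187 ± 63.3 CPM in CBE, 178 ± 33.5 in sphincter 1 and 147 ± 30.8 in iris PE. It was at 92.9 ± 48.9 CPM in sphincter 2, 66.9 ± 5.15 in dilator muscle and 62.9 ± 9.51 in CB, and neighbours in this order overlapped. Background in stroma 1 and stroma 2 was 8.42 ± 1.45 and 6.87 ± 1.45 CPM.

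*Otx2* (chr14:48657677-48673819, minus strand) was highest in CB, sphincter 2 and dilator muscle. CB had 514, 331 and 456 CPM in untreated 1, 2 and 3, and sphincter 2 and dilator muscle were at 395 ± 65.2 and 339 ± 7.60 CPM. Sphincter 1, at 120.0 ± 8.76 CPM, was below these 3 types without overlap. In iris PE *Otx2* was at 11.2 ± 0.991 and in CBE at 11.4 ± 2.53 CPM, close to the 9.12 ± 1.42 CPM of stroma 2. The thinned shares of nuclei with an *Otx2* UMI were 0.978% in iris PE and 0.542% in CBE, against 0.859% in stroma 1 and 0.890% in stroma 2, and are read as background. They were 27.1% in dilator muscle, 30.1% in CB and 30.8% in sphincter 2.

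The share of *Otx2* among the UMIs of both OTX genes, a ratio within each sum that does not depend on depth, was 7.25 ± 1.52% in iris PE and 6.54 ± 3.96% in CBE. It was 40.6 ± 5.86% in sphincter 1, 82.0 ± 6.70% in sphincter 2, 83.5 ± 0.904% in dilator muscle and 86.9 ± 4.08% in CB. Sphincter 1 and sphincter 2, both named as sphincter muscle, thus lay on different sides, with 35.4 to 46.9% and 77.9 to 89.7% in their untreated libraries. Within dilator muscle, 64.4% of nuclei with an *Otx1* UMI also had *Otx2*, against 62.3% of nuclei without *Otx1*. Nuclei were not thinned for these 2 shares, so depth was not matched and they do not show whether the genes go together. *Crx*, the remaining gene of the family and a photoreceptor gene, was at 0.660 CPM or less in every type.

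**Figure D2:**
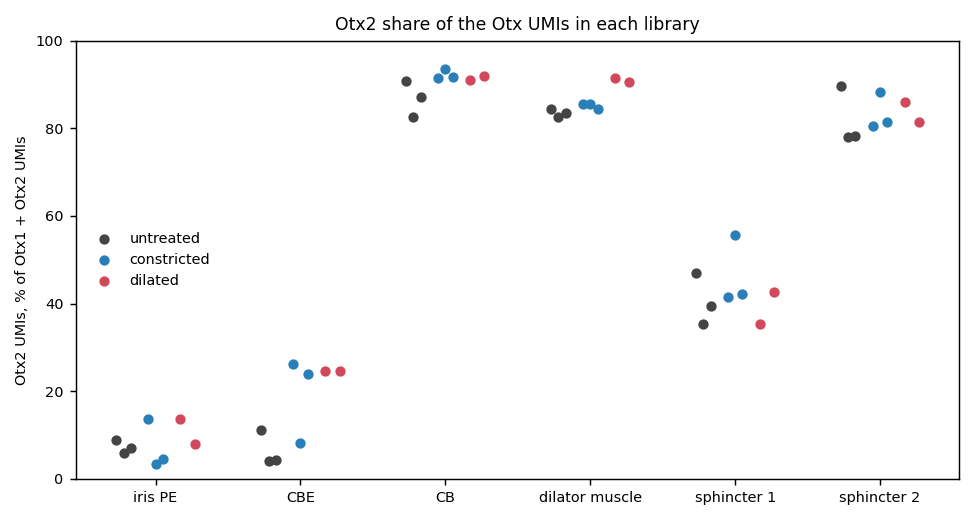
Share of *Otx2* among *Otx1* and *Otx2* UMIs (percent, y axis) in the 6 epithelial, muscle and CB types; each point is a library, coloured by condition. The untreated libraries lie between 4.17 and 11.1% in CBE and between 82.6 and 84.4% in dilator muscle, and the 2 dilated libraries of dilator muscle lie at 90.6 and 91.5%.

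*Otx2os1*, a noncoding gene that overlaps the 5′ part of *Otx2* on the opposite strand, had the same order in its highest types, from 1594 ± 215 CPM in CB to 761 ± 57.8 in sphincter 2, 698 ± 88.3 in dilator muscle and 174 ± 12.6 in sphincter 1, with 17.1 ± 3.86 in iris PE. How the counting treated strand is not given in the sources used here, so reads of such a pair could in part be exchanged. The same holds for *Zic1* with *Zic4*, *Pax6* with *Pax6os1*, and *Lhx2*, *Six3* and *Six6* with genes that overlap them.

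*Zic1* and *Zic2* were highest in iris PE and CBE. Of the 10877 *Zic1* UMIs in untreated irises, 85.9% came from iris PE, which held 25.9% of the nuclei, and 8.72% from CBE, which held 2.60%. The 3 libraries had 701, 767 and 825 CPM in iris PE and 523, 766 and 826 CPM in CBE, so that these types overlapped. Dilator muscle had only 17.5, 9.57 and 14.6 CPM, like the stroma. *Zic1* in sphincter 1 was at 10.8, 87.7 and 90.3 CPM, with 2 UMIs behind the lowest value. Its thinned share of nuclei there, 7.59%, was above the 1.17% and 1.44% of stroma 1 and stroma 2. Means were higher, with overlap, in leukocytes (81.4 ± 104 CPM) and endothelial cells (80.5 ± 13.2 CPM). Without called doublets sphincter 1 was at 48.6, leukocytes at 72.7 and endothelial cells at 54.8 CPM. Without shared barcodes leukocytes were at 15.2 CPM. The source of the *Zic1* UMIs in sphincter 1 was not tested.

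*Zic2* (chr14:122475435-122479852, plus strand) was higher in CBE than in iris PE without overlap. CBE had 164, 176 and 116 CPM and iris PE 51.8, 52.5 and 46.9 CPM. The 3 untreated libraries of CB held 0 *Zic2* UMIs in 346 nuclei, which allows up to 0.867% of nuclei with a UMI. In dilated 1, CB held 8 *Zic2* UMIs in 538 nuclei. Untreated dilator muscle had 10 *Zic2* UMIs in 4357 nuclei, with 0.230% of nuclei positive, no more than stroma 1 at 0.310%.

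The neighbours of both ZIC genes, which were on the list of related genes, were high in the same types. *Zic4* overlaps *Zic1* on the opposite strand at the 5′ end and was at 600.4 ± 74.8 CPM in iris PE and 676 ± 170.1 in CBE, but at 7.05 ± 3.69 CPM in dilator muscle. *Zic5*, separated from *Zic2* by 9757 bases and transcribed away from it, was at 17.5 ± 5.25 CPM in iris PE and 54.6 ± 12.3 in CBE. Like *Zic2*, it was higher in CBE.

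*Tbx20* (chr9:24718138-24774303, minus strand) shared iris PE and CBE with the ZIC genes and was also found in 1 of the sphincter types. Iris PE had 933, 625 and 632 CPM in untreated 1, 2 and 3, CBE 676, 355 and 264 CPM, and sphincter 1 382, 244 and 241 CPM. In all 3 types untreated 1 was the highest library, and each type overlapped with its neighbour in this order. Sphincter 2 was at 43.3 ± 19.5, CB at 12.8 ± 2.34 and dilator muscle at 7.79 ± 0.806 CPM, the last within the 6.72 to 8.96 CPM of the stromal means. Without called doublets sphincter 2 was at 8.86 CPM, near the stroma. The thinned shares were 42.7% of iris PE, 23.8% of CBE and 19.3% of sphincter 1 nuclei, and 1.71% of sphincter 2 nuclei.

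*Six3* and *Six6* are related factors of the early eye field. *Six6* (chr12:72939892-72944899, plus strand) had 320 UMIs in all 8 libraries together. CBE had 24.9, 18.9 and 33.3 CPM, from 7, 10 and 16 UMIs, and the next type, sphincter 1, was at 7.62 CPM without overlap. In CB, stroma 2, leukocytes and endothelial cells the untreated libraries held 0 *Six6* UMIs. In CB, 0 of 346 nuclei allows up to 0.867%, and CB of dilated 1 held 3 *Six6* UMIs in 538 nuclei.

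*Six3* (chr17:85613608-85629302, plus strand) was at 110.0 ± 10.5 CPM in CBE and 100.1 ± 4.61 in CB, which overlapped, and at 41.7 ± 10.5 in sphincter 1 and 32.3 ± 3.48 in iris PE. Sphincter 2 was at 0.694 ± 1.20 CPM, so that the sphincter types differed in *Six3* as they did in *Tbx20*. The highest level was in endothelial cells, which are neither epithelium nor muscle of the iris. It was 155, 234 and 201 CPM in untreated 1, 2 and 3, without overlap with CBE, and all 8 libraries had *Six3* in this type, between 155 and 642 CPM from 8 to 47 UMIs each. In endothelial nuclei there were 98.9 *Six3* UMIs per 100 *Pax6* UMIs over all libraries, where the other 9 types had at most 9.87. A *Six3* UMI was seen in 38.3% of 149 endothelial nuclei, and in 21.1% when thinned, against 10.6% of CBE nuclei. Without called doublets the endothelial level was 244 CPM, whereas *Pax6* in this type went from 319 to 126 CPM and *Tbx20* from 112 to 57.3 CPM. The endothelial markers *Pecam1*, *Cldn5* and *Flt1* summed to 5682 to 6310 CPM there. Markers of iris PE were present too, at 2215 to 3796 CPM, and their part in the levels of the other genes in endothelial nuclei was not tested.

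By Pearson's r of log2(CPM + 1) over the 80 sums of a library and cell type, the gene most like *Zic1* among 12902 others was *Tbx20* (r = 0.89), and the next was *Zic4* (r = 0.88). *Tbx20* had *Zic1* first, followed by *Zic4* (r = 0.87) and *Pcdh9* (r = 0.83). The genes most like *Otx2* were *Mapk4* (r = 0.93), *Otx2os1* (r = 0.90) and *Sv2b* (r = 0.89). *Otx2* and *Zic1* were related by r = -0.18. *Pax6* was followed most closely by *Amph* (r = 0.95), *Foxp2* (r = 0.94) and *Spon1* (r = 0.93), *Meis2* by *Cadm1* (r = 0.91) and *Pax6* (r = 0.87), and *Zic2* by *Zic5* (r = 0.88). For *Otx1* the first gene was *Nlgn1* (r = 0.82), for *Lhx2* *Slc35f3* (r = 0.82) and for *Six3* *Sorbs2* (r = 0.80). The 80 sums share 8 libraries, and depth differs among types, so these values describe the likeness of patterns only.

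Dilation of the pupil was compared with the untreated state in each cell type by edgeR's quasi-likelihood test, and a gene was called where the log2 fold change exceeded 0.6 in either direction with an adjusted p below 0.05 (Benjamini-Hochberg over all genes of the type). After the filter on low counts the 10 genes gave 62 tests over the 10 types, all 10 of them in iris PE and CBE, 9 in dilator muscle, 7 in sphincter 1 and stroma 2, and fewer in the others. Of the 62, 1 was called, *Otx2* in dilator muscle. An unadjusted p under 0.05 by edgeR was found in 8 of the 62, against 11105 of the 85092 tests of all genes. The background was 3.34% of all tests called over the 10 types and 13.3% in dilator muscle, so that 1 of 9 members tested there is near the background. The median log2 fold change of the 62 tests was 0.06, and in dilator muscle it was 0.12 over the 9 genes and 0.02 over all genes.

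*Otx2* in dilator muscle was at 332, 338 and 347 CPM in the untreated libraries, 338, 300.5 and 346 in the constricted and 545 and 414 in the dilated. Both dilated libraries were above every other library. The log2 fold change was 0.68 ± 0.14 (SE), 1.60-fold, with an adjusted p of 0.00598 by edgeR. The call rested on dilated 1, without which the log2 fold change was 0.55 and the adjusted p 0.069. When total UMIs were used in place of the TMM factors the log2 fold change was 0.50 and not called, and the median of all genes shifted from 0.02 to -0.16 in that scaling. The *Otx2* share of the OTX UMIs, which needs no scaling, was 90.6 and 91.5% in the dilated libraries, above the 82.6 to 84.4% of the untreated libraries and the 84.4 to 85.6% of the constricted. Values of the other gene of that ratio, *Otx1*, were 50.5 and 43.1 CPM in the dilated libraries and 61.1 to 70.9 CPM in the untreated ones (log2 fold change -0.34 ± 0.16, adjusted p = 0.19 by edgeR).

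In dilator nuclei *Slc4a4*, a gene high in CB, was at 575 CPM dilated and 714 CPM untreated. The other markers taken for CBE were *Aqp1*, which rose from 26.7 to 182 CPM, and *Atp1b2*, which rose from 14.2 to 23.5 CPM, and all 3 together summed to 726 to 835 CPM dilated and 727 to 770 CPM untreated. The iris PE markers did not move together, as *Dct* rose from 5220 to 7708 CPM, *Tyr* fell from 1214 to 276 CPM and *Tyrp1* was at 806 CPM untreated and 542 CPM dilated, with sums of 8380 to 8672 CPM dilated and 7053 to 7478 CPM untreated. The dilator markers *Adra1a*, *Nos1* and *Myh11* summed to 1583 to 1623 CPM in the dilated libraries and 2406 to 2832 CPM in the untreated. Among these markers *Aqp1*, *Atp1b2* and *Dct* were themselves called as rises with dilation in dilator muscle, and *Tyr* and *Nos1* as falls. The sums therefore do not measure the share of RNA from each cell type. The part of these genes in the *Otx2* value was not tested.

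In CB the *Otx2* level was 611 and 773 CPM with dilation, 331 to 514 CPM untreated and 546 to 625 CPM with constriction. The log2 fold change with dilation was 0.70 ± 0.23 and did not pass (adjusted p = 0.51 by edgeR). In CBE *Otx2* had 4, 5 and 5 UMIs in the untreated libraries, 21, 6 and 6 in the constricted and 82 and 17 in the dilated, or 11.4 CPM on average untreated and 40.6 dilated (log2 fold change 1.89 ± 0.45, adjusted p = 0.25 by edgeR). Over 17 alternatives the CBE value ranged from 1.22 to 2.03 and passed in 1, and without called doublets it was 1.22 ± 0.76. The *Otx2* share of the OTX UMIs in CBE was 24.6% in both dilated libraries. It was 8.22 to 26.3% in the constricted and 4.17 to 11.1% in the untreated. In sphincter 2, with *Otx2* at 429 CPM dilated and 395 CPM untreated, the log2 fold change was 0.15 ± 0.24.

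**Figure D3:**
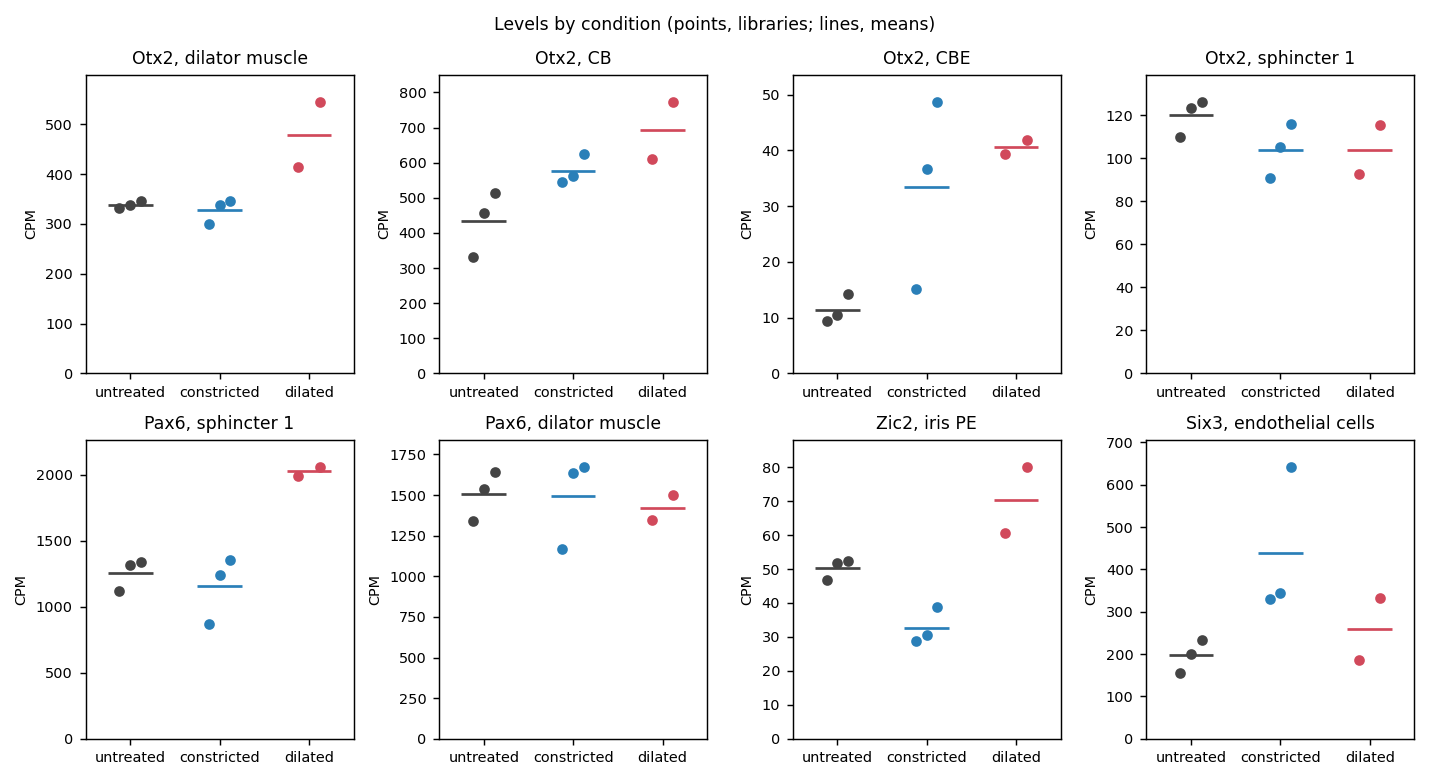
Levels (CPM, y axes from 0) of *Otx2*, *Pax6*, *Zic2* and *Six3* in chosen cell types, by condition; points are libraries and lines means. The dilated libraries of *Otx2* in dilator muscle, at 545 and 414 CPM, and of *Pax6* in sphincter 1, at 2059 and 1991 CPM, lie above all others.

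*Pax6* in sphincter 1 had the next clearest separation. The untreated libraries had 1118, 1343 and 1314 CPM, the constricted 1356, 872 and 1244 CPM, and the dilated 2059 and 1991 CPM. Both dilated libraries were above every other. The log2 fold change, 0.72 ± 0.21, did not pass (adjusted p = 0.0895 by edgeR), in a type where 1.95% of genes were called. It passed in 4 of 17 alternatives: without constricted 2 (0.016), without called doublets (0.0495), with the 2 conditions fitted alone (0.013) and with DESeq2 (0.037). In the other 13 it was not called, and over all 17 the log2 fold change ranged from 0.64 to 0.79. *Zic1* in sphincter 1 was at 133 CPM with dilation and 62.9 CPM untreated (0.83 ± 0.33, adjusted p = 0.30 by edgeR). Markers of iris PE in sphincter 1 nuclei summed to 960 to 1246 CPM dilated, 473 to 1030 CPM untreated and 109 to 849 CPM constricted. Of the 3, *Dct* was at 930 CPM dilated and 586 CPM untreated, *Tyr* at 58.3 and 114 CPM and *Tyrp1* at 115 and 136 CPM. In iris PE itself *Dct* was at 10123 CPM dilated and 7060 CPM untreated, *Tyr* at 863 and 1959 CPM and *Tyrp1* at 1004 and 1233 CPM. Their sum therefore does not measure the amount of iris PE RNA in sphincter 1 across conditions. Doublets were called in 7.52% of sphincter 1 nuclei. The part of these in the *Pax6* value was not tested, beyond the larger log2 fold change of 0.77 without called doublets.

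*Pax6* in the other muscles and in iris PE had dilation values near 0: 0.11 ± 0.19 in dilator muscle, 0.10 ± 0.19 in sphincter 2 and -0.01 ± 0.16 in iris PE. The difference between cell types was tested in joint fits of 6 pairs of types with a term for each library. Over 56 tests of the genes in these pairs 4 were called, against 4.43% of all tests, and 0 with the replicate number as a block. The *Pax6* response of sphincter 1 exceeded that of dilator muscle by 0.63 (dilator minus sphincter 1, -0.63 ± 0.18, adjusted p = 0.012), that of iris PE by 0.73 (iris PE minus sphincter 1, -0.73 ± 0.19, adjusted p = 0.017) and that of sphincter 2 by 0.61 ± 0.17 (adjusted p = 0.033), all by edgeR. The fourth was *Otx2*, whose response in dilator muscle exceeded that of sphincter 1 by 0.82 ± 0.25 (adjusted p = 0.029 by edgeR). The 3 *Pax6* values share the sphincter 1 libraries. None of the 4 calls held without dilated 1 or without untreated 3. Without dilated 2 the calls of *Pax6* against iris PE and against sphincter 2 were lost, without untreated 2 those of *Otx2* and of *Pax6* between the sphincter types, and without untreated 1 the latter alone. The *Otx2* difference was 0.76 without called doublets (adjusted p = 0.068) and 0.66 with total UMI scaling (adjusted p = 0.097), and without barcodes shared by libraries the difference between the sphincter types was 0.58 and not called.

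**Figure D4:**
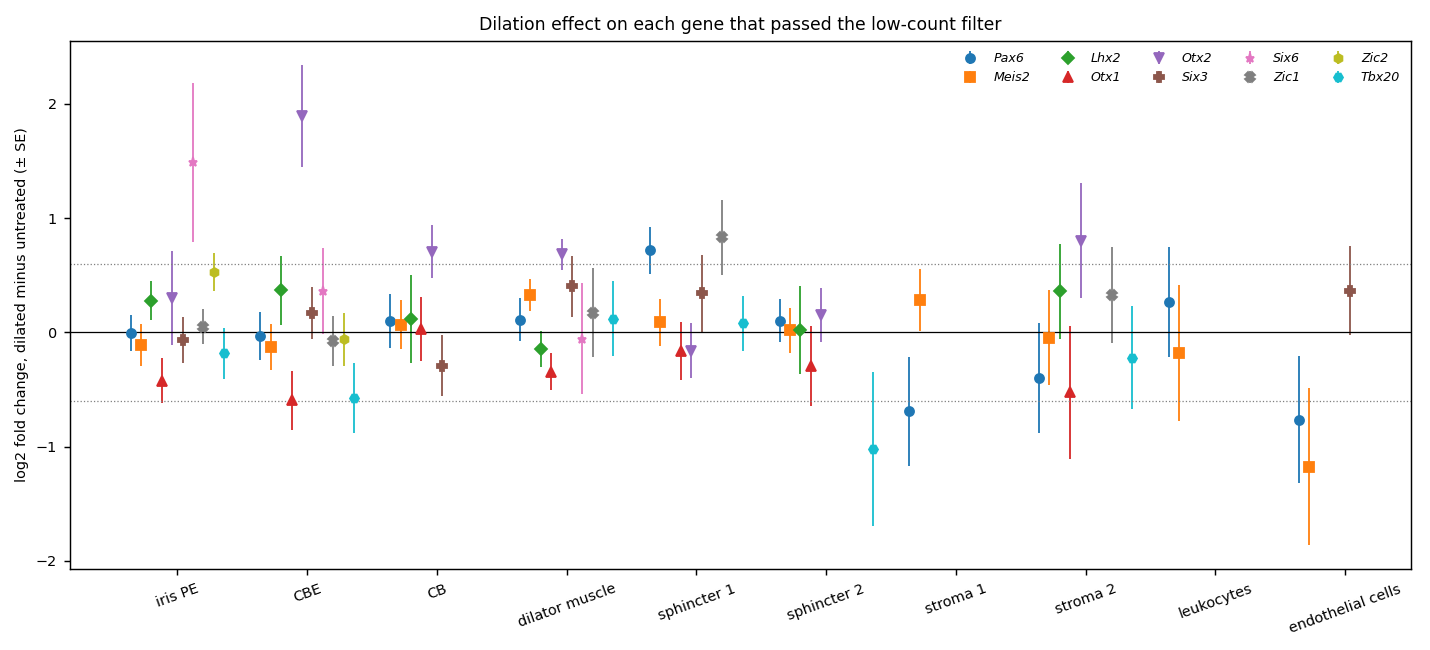
log2 fold change of dilated minus untreated (y axis, ± SE) for each of the 10 genes in the cell types (x axis) where it passed the filter on low counts; dotted lines are at 0.6 and -0.6. *Otx2* in dilator muscle, at 0.68, is the value that passed the test, and those of the abundant genes *Pax6* and *Meis2* in iris PE, -0.01 and -0.11, lie near 0.

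*Meis2* in dilator muscle was at 1212 and 1107 CPM dilated and 988 to 1089 CPM untreated (log2 fold change 0.33 ± 0.14, adjusted p = 0.14 by edgeR), and *Lhx2* was at 66.9 and 55.5 CPM dilated and 75.1 to 77.9 CPM untreated (-0.14 ± 0.16). In CPM the *Meis2* values did not overlap and the *Lhx2* values did not overlap, in opposite directions. CPM uses total UMIs, a scaling in which the median log2 fold change of all dilator genes was -0.16. With the TMM factors the *Lhx2* change was smaller than its SE, so a fall of *Lhx2* is not shown. In iris PE *Zic1* had 772 CPM dilated and 764 CPM untreated (0.05 ± 0.15) and *Tbx20* 620.0 and 730 CPM (-0.18 ± 0.22). *Otx1* in iris PE had 108.0 and 108.2 CPM dilated, below every other library, and was not called. Its untreated libraries had 111, 165 and 165 CPM and its constricted ones 130, 138 and 168 CPM. *Zic2* is described below. *Six3* in endothelial cells was at 333 and 185 CPM dilated and 155 to 234 CPM untreated, and the groups overlapped.

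*Zic2* in iris PE was the member whose 3 conditions separated in order. The constricted libraries had 38.8, 28.7 and 30.7 CPM, the untreated 46.9 to 52.5 CPM and the dilated 80.1 and 60.6 CPM, and no groups overlapped. Neither contrast passed: the log2 fold change was 0.53 ± 0.17 with dilation (adjusted p = 0.27) and -0.59 ± 0.17 with constriction (adjusted p = 0.83), by edgeR. In CBE *Zic2* was at 87.6 CPM with constriction and 152 CPM untreated (-0.70 ± 0.24, adjusted p = 0.50) and at 140 CPM with dilation.

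With constriction no gene of the 10 was called in 62 edgeR tests, where 0.0118% of all tests over the 10 types were called. DESeq2 also called 0. By edgeR 8 of the 62 had an unadjusted p under 0.05, against 4468 of the 85092 tests of all genes. Among these were *Pax6* in CB, with 1427, 1160 and 1506 CPM constricted and 1572 to 2580 CPM untreated (-0.55 ± 0.21, adjusted p = 0.87), and *Six3* in endothelial cells, with 331, 642 and 345 CPM constricted and 155 to 234 CPM untreated (1.06 ± 0.37, adjusted p = 0.25). Groups did not overlap in these 2 cases. *Tbx20* in dilator muscle, at the stromal level, was at 3.66 CPM constricted and 7.79 CPM untreated (-1.05 ± 0.34).

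Related genes were counted from lists of partners and paralogs, of other eye field and optic cup factors, and of cofactors. With dilation, 1 of 46 tests of partners and paralogs was called, all 10 types together, against the background of 3.34% of all tests, or 13.3% in dilator muscle, and it fell: *Six5*, a relative of *Six3*, in dilator muscle (-0.71 ± 0.20, 16.5 CPM dilated and 31.9 untreated, adjusted p = 0.036). Of 84 tests of eye field and optic cup factors 4 rose and 2 fell. The rises were *Hes1*, a target of Notch signalling, in dilator muscle (124 CPM dilated and 49.8 untreated), stroma 1 (2.08 ± 0.37) and stroma 2 (1.34 ± 0.24), and *Maf*, a bZIP factor, in stroma 2 (0.94 ± 0.21). The falls were *Tfec*, a relative of *Mitf*, in dilator muscle (-0.86 ± 0.21, 50.0 and 105 CPM) and *Nr2f1*, an orphan nuclear receptor, in sphincter 1 (-1.46 ± 0.33, 32.8 and 94.9 CPM). Of 129 tests of cofactors 3 fell: *Eya2*, a coactivator that partners *Six3* relatives, in dilator muscle (-0.87 ± 0.21, 51.9 and 109 CPM), *Lmo4*, a LIM-only partner of LDB1, in sphincter 2 (-0.77 ± 0.21) and *Tle2*, a corepressor, in stroma 2 (-1.05 ± 0.23). The median log2 fold changes of the 3 lists were 0.06, -0.01 and -0.15, and no gene of these lists was called with constriction.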

How the data were processed

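Per the labels and the study's methods, the authors prepared single nucleus libraries with a 10× Genomics 3′ kit, aligned reads to exons and introns of mm10 with Cell Ranger 3.1.0 and clustered nuclei with Seurat. The deposited matrices hold raw UMI counts, and the authors' nucleus tables hold the cell type, the number of UMIs and genes and the percent of mitochondrial transcripts, at most 0.991%. Low quality nuclei had been removed. Libraries were made in several batches, and the batch of each is not given in the sources used here. Counts were added up for each cell type of each library and tested with edgeR 4.0.16 (TMM, filterByExpr, two-sided quasi-likelihood F test, all 8 libraries of a type in 1 fit, R 4.3.3); SE is the log2 fold change over the square root of F. DESeq2 1.42.0 was an alternative, as were calls without doublets (Scrublet in scanpy 1.11.5; 1.04% of nuclei). The fits were tested on simulated data, and the outcome is not reported here. No p-value is given for levels between cell types, since they were clustered on the same counts. The p-values from the joint fits are for differences of dilation effects. Likeness used genes with at least 500 UMIs, so *Six6* has none, and the 3 genes of highest r. Shares for 0 counts allow 3 counts; intervals and shares cover counting error only. Positions are from GENCODE vM21 (mm10), which matched 22498 of 22873 genes by symbol. The genes named are the 10 members, listed relatives that passed the test or adjoin a member, and the genes of highest r. Members and lists were chosen with earlier results of these data known. *Six2*, *Six3os1*, *Lhx2os*, *Sox2*, *Vax1* and *Nr2e1* were not analysed here. A marker list of a neighbouring tissue is not reported here.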

Additional observations from a re-analysis of the deposited data

Results flagged for a closer look

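The dilation effect differed between cell types in the joint edgeR fits for 4 of 56 tests, each a difference of log2 fold changes. Of all tests in the 6 pairs of cell types 4.43% were called, and none of the 4 held without untreated 3. *Pax6* was at -0.63 for dilator muscle against sphincter 1, at -0.73 for iris PE against sphincter 1 and at 0.61 for sphincter 1 against sphincter 2. *Otx2* was at 0.82 for dilator muscle against sphincter 1. With the replicate number as a block 0 of these 4 were called. Groups of 2 or 3 libraries are too small for a test of single libraries that stand apart.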

How the results depend on the processing

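Of the 17 alternatives tried for the members changed with dilation (1 call), 9 left the count within 1.5 times. It was 0 with total UMI scaling, chosen after seeing the data, and 2 with no filter on low counts, with the library number series as a term, without called doublets, with only the 2 conditions compared and with DESeq2. Leaving out 1 library at a time gave 0 to 2. *Otx2* in dilator muscle kept its direction in all 17, from 0.50 to 0.80 with adjusted p from 0.000119 to 0.069, and lost its call with total UMI scaling and without dilated 1, where the lone dilated library is assumed to vary like the others. Total UMI scaling also took the share of rises among all dilator muscle calls from 54.0% to 32.2%. The count with constriction was 0, and 1 with no filter on low counts; leaving out 1 library gave 0. The count of unequal dilation effects was 4, and 2 with no filter on low counts; leaving out 1 library gave 0 to 4. The cause of these changes was not tested.

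The labels do not say that a replicate number marks a shared batch. Same-numbered libraries were compared within dilator muscle, iris PE and a stromal type, which gave 21 comparisons. Of these, 15 had a correlation of deviations above 0.1 (r from -0.03 to 0.45). Each pair of libraries recurs in all of these types, so the comparisons are not independent. No r of differently numbered libraries is given for reference, so the values do not show a shared batch. With the replicate block the unequal dilation effects called went from 4 to 0, and the call of *Otx2* in dilator muscle stood (0.72, adjusted p = 0.00396).

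The rank correlation in place of Pearson's r shared 3 of the first 3 genes for *Otx2*, 2 for *Zic2*, *Six3* and *Tbx20*, 1 for *Otx1* and *Zic1*, and 0 for *Pax6*, *Lhx2* and *Meis2*. *Six3* in endothelial cells ranged from 153 to 303 CPM over the alternatives, and its 8 to 47 UMIs per library limit its precision. *Six6*, with 320 UMIs, was limited by depth in every type.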
